A study of Mus musculus with 6 samples.

Results

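In all, 10 genes of the glutathione S-transferase family, taken by name from the deposited tables, were followed across 6 mouse liver libraries. They are the alpha class genes Gsta1, Gsta2, Gsta3 and Gsta4, the mu class genes Gstm1, Gstm2 and Gstm3, the pi class gene Gstp1, the theta class gene Gstt1 and the kappa class gene Gstk1. All 10 were found, among 54320 genes in the tables and 13787 that could be tested. The mice were of strain C57BL/6 and 11 weeks old, and each had eaten a diet labelled MCD for 3 weeks. The 3 control mice were HuR flox/flox (flox) and 3 mice were HuRflox/flox with Alb-Cre+/- (HKO), so the floxed HuR alleles were common to both groups and the HKO mice also carried Cre under the albumin promoter, which is active in hepatocytes. Whole liver RNA was sequenced, so fewer cells of a type and less RNA per cell cannot be told apart.

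Glutathione S-transferases join the tripeptide glutathione to reactive, mostly lipophilic compounds, which makes them easier to export from the cell. Most are soluble enzymes built of paired subunits, and hepatocytes hold them in very large amounts. The alpha, mu and pi classes are known in mouse liver to be induced by the stress factor NRF2, and some members also by the xenobiotic receptors CAR and PXR.

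The libraries held 16769082 to 20633215 reads in genes, recovered from the deposited FPKM values (reads divided by the length of the gene and by the depth of its library). Elavl1, the gene of HuR, measured 3.51, 2.36 and 2.99 FPKM across flox 1, 2 and 3, against 5.77, 4.28 and 4.91 FPKM across HKO 1, 2 and 3, which goes against the labels. The tables sum reads over the whole gene and do not show single exons, so every direction below compares the libraries by their labels and not by a verified loss of HuR. All 10 hepatocyte markers in the tables were above 0 in every library, and their summed level was 64205 to 86508 FPKM. Reads fell in 16608 genes in flox 2 and in 19920 to 22067 genes in the remaining libraries, and 2.26% of the reads of flox 2 were mitochondrial, compared with 4.34% to 4.69% in the others. Flox 3 resembled the HKO libraries (Pearson's r of 0.896 to 0.919 across genes) as much as it did flox 1 (0.897) and more than flox 2 (0.811). These coefficients run across genes, which are no replicates of one another. The libraries are separate samples in the labels, which do not state that they came from separate litters or batches, so p-values measure the spread between these samples.

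The start regions of 4 members are shown because Gsta1 and Gsta2 gave nearly parallel values across the libraries, Gsta3 gave the most divergent ones, and Gstp1 holds a known kind of site. They run from 250 bases before the start site to 50 after it and are RefSeq windows on GRCm38.p6. Such windows were found for 9 of the 10 members. They were searched on both strands for TGACNNNGC, a form of the core of the antioxidant response element through which NRF2 acts, and for TGACTCA, the AP-1 site. A stretch that starts with the second motif and goes on with GC matches both. Capitals mark the matches.
Gsta1: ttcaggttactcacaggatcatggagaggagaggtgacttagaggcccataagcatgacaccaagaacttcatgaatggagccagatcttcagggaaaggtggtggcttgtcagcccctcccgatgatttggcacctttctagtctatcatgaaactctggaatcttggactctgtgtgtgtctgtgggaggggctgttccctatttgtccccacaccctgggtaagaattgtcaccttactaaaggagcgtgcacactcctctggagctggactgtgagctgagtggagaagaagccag
Gsta2: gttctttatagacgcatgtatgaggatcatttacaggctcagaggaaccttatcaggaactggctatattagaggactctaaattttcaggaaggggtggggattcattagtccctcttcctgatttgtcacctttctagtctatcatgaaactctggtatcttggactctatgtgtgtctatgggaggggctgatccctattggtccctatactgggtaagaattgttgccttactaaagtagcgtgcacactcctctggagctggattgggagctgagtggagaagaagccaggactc
Gsta3: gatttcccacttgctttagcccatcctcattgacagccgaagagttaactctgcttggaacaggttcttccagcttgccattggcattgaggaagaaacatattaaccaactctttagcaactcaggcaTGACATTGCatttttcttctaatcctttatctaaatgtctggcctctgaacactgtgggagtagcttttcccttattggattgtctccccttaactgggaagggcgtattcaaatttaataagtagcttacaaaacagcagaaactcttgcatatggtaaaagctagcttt
Gstp1: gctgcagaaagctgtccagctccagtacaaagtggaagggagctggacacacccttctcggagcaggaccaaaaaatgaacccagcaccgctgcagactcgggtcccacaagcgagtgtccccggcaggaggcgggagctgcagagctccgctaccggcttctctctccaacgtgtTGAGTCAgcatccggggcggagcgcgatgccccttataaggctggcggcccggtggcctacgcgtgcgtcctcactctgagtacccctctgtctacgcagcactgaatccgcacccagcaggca
The Gsta1 window is chr9:78230419-78230718 on the plus strand and the Gsta2 window is chr9:78347096-78347395 on the minus strand. The Gsta2 window lies inside the deposited span of the gene, 78331018 to 78355788, so its RefSeq start site is not the outer end of that span. Aligned to each other the Gsta1 and Gsta2 windows had 232 identical bases out of 289 aligned, or 80.3%. The Gsta3 window, chr1:21240335-21240634 on the plus strand, held TGACATTGC from 121 to 113 bases before the start. The Gstp1 window, chr19:4037863-4038162 on the minus strand, held TGAGTCA, which is the AP-1 site read on the other strand, from 74 to 68 bases before the start. Although GC follows it there, this stretch does not match the first motif as searched, which needs TGAC. Forms of the core with TGAG were not searched, so the search does not show whether the Gstp1 window holds such an element. No other member window held either motif, and 12.4% of all 32851 windows held the first and 5.20% the second. These matches are descriptions of the letters in a short window.

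The mu class was the most abundant and Gstm1, its main liver subunit, stood first among all members in every library. Gstm1, on chromosome 3 from 108012255 to 108017973, measured 2254, 3461 and 507 FPKM across flox 1, 2 and 3, against 792, 828 and 914 FPKM across HKO 1, 2 and 3. The flox values lay on both sides of the HKO values. Flox 1 and 2 were far above them and flox 3 was below.

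Gstm3 (chromosome 3, 107963696 to 107969283), a further mu subunit, measured 347, 655 and 91.4 FPKM across flox 1, 2 and 3, against 234, 213 and 264 FPKM across HKO 1, 2 and 3. Gstm2 (chromosome 3, 107981702 to 107986453) measured 146, 178 and 78.4 FPKM across flox 1, 2 and 3, against 139, 134 and 121 FPKM across HKO 1, 2 and 3. The same order held in both, with flox 2 highest and flox 3 lowest, but the spread was much narrower for Gstm2. All 3 mu genes lie in 1 cluster on the minus strand. They also share sequence with other genes: 19.9% of the 50-base stretches of Gstm1 transcripts and 28.8% of those of Gstm3 occur elsewhere, mostly in Gstm2-ps1 and in Gm8834, and 8.30% of those of Gstm2 do. Gstm2-ps1 measured 80.1, 100.4 and 20.6 FPKM across flox 1, 2 and 3, against 26.8, 28.9 and 32.5 FPKM across HKO 1, 2 and 3. How reads were divided among such copies is not given in the sources used here.

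Gsta1 and Gsta2 encode inducible alpha subunits that also reduce lipid hydroperoxides. Gsta1 (chromosome 9, 78230656 to 78242684) measured 41.8, 51.3 and 4.85 FPKM across flox 1, 2 and 3, against 10.9, 17.3 and 10.3 FPKM across HKO 1, 2 and 3. Gsta2 (chromosome 9, 78331018 to 78355788) measured 69.6, 71.3 and 7.54 FPKM across flox 1, 2 and 3, against 20.8, 31.7 and 21.2 FPKM across HKO 1, 2 and 3. In both genes flox 1 and 2 were well above all HKO libraries, flox 3 was the lowest library, and HKO 2 was the highest HKO library. Their counts cannot be fully told apart from those of near copies: 89.7% of the 50-base stretches in the Gsta1 transcripts occur in transcripts of other genes, mostly Gm3776, and 47.4% of those of Gsta2 do. Gm3776 itself measured 12.2, 16.1 and 1.49 FPKM across flox 1, 2 and 3, against 2.91, 5.76 and 6.08 FPKM across HKO 1, 2 and 3.

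Gsta4, on chromosome 9 from 78182774 to 78209349, encodes the subunit that clears 4-hydroxynonenal, a product of lipid peroxidation. It measured 93.4, 127 and 11.7 FPKM across flox 1, 2 and 3, against 38.2, 50.7 and 46.0 FPKM across HKO 1, 2 and 3. Flox 3 was 10.9-fold below flox 2, the widest gap within flox among the 10 members. No 50-base stretch of Gsta4 transcripts occurs in another gene.

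Gsta3 did not share the high values of flox 1 and 2. It is the main constitutive alpha subunit of mouse liver and detoxifies the epoxide of aflatoxin. The gene, on chromosome 1 from 21240589 to 21265661, measured 257, 241 and 63.2 FPKM across flox 1, 2 and 3, against 240, 318 and 296 FPKM across HKO 1, 2 and 3. Flox 1 and 2 lay at or within the range of the HKO values, and flox 3 was 4.07-fold below flox 1. Gsta3 is the longest member at 4344 bases in the tables, against 757 to 1679 bases for the others.

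Gstp1 (chromosome 19, 4035407 to 4037921), the pi subunit and a form that is higher in male than in female mouse liver, measured 35.5, 56.4 and 10.4 FPKM across flox 1, 2 and 3, against 13.8, 18.7 and 18.2 FPKM across HKO 1, 2 and 3. Its near copy Gstp2 holds 51.0% of its 50-base stretches, and was listed at 0 to 1.45 FPKM. How many reads such copies could take depends on the read length, which the sources used here do not give. Gstt1 (chromosome 10, 75783813 to 75798584), a theta subunit that acts on small halogenated compounds, measured 125, 194 and 77.9 FPKM across flox 1, 2 and 3, against 104, 119 and 122 FPKM across HKO 1, 2 and 3. Both genes had flox 2 at the top and flox 3 at the bottom.

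Gstk1 was the member with separate groups. Its product belongs to a structurally distinct kappa class found in mitochondria and peroxisomes. The gene (chromosome 6, 42245935 to 42250447) measured 53.4, 63.8 and 39.0 FPKM across flox 1, 2 and 3, against 32.0, 35.8 and 37.8 FPKM across HKO 1, 2 and 3. The highest HKO value was just below the lowest flox value, again flox 3.

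**Figure D1:**
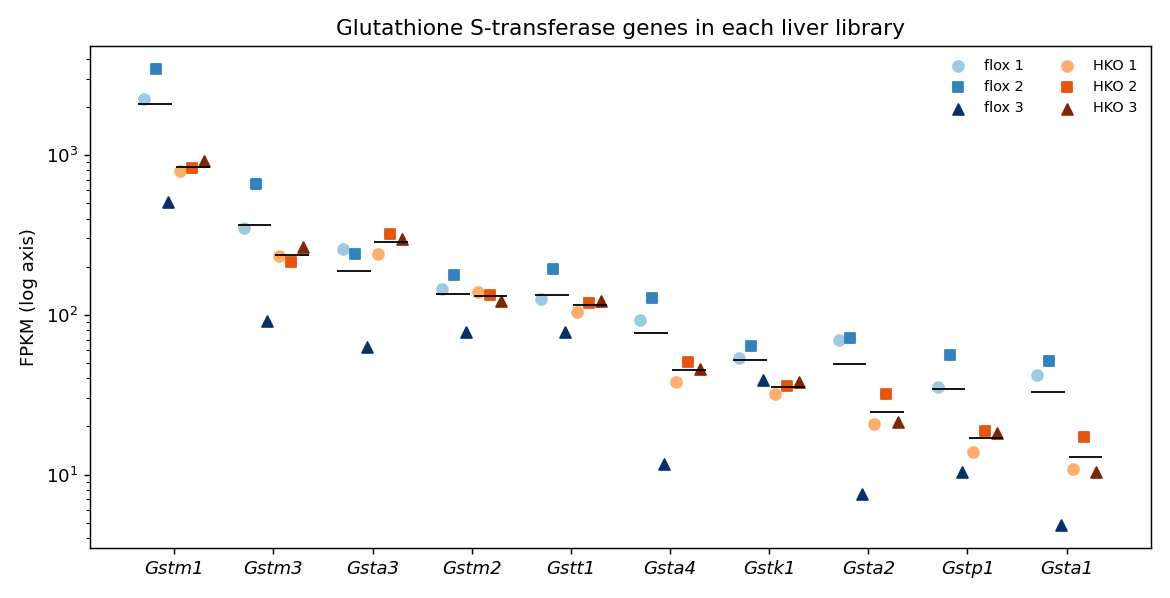
FPKM of each member in each library on a log axis, with members ordered by mean level; symbols are libraries and short lines are group means (3 libraries each). Flox 3 (dark blue triangles) is the lowest library for 9 of 10 members, while the HKO symbols lie close together.

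No member passed the test between the groups. Limma, fitted on log2(FPKM + 0.5) over all 13787 tested genes with Benjamini-Hochberg adjustment at 0.05, called 0 of 10 members, where 0.0145% of all tested genes were called (1 higher and 1 lower in HKO, or 0.00725% each). At an unadjusted p below 0.05 there were again 0 of 10 members, against 20.9% of all tested genes. Of the members 8 had negative and 2 positive log2 fold changes (HKO minus flox), where 50.1% of all tested genes were negative, with a median of -0.35, against -0.0018 over all tested genes. This majority depends on the scaling: with quantile normalization or with libraries scaled to the same sum, 5 of 10 were negative. Scaling to the same sum moved the median of all genes to 0.34, above the members' median of 0.059, and scaling to the upper quartile moved it to 0.11, above the members' median of -0.21.

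The intervals of the fold changes were wide. For Gstm1 the group means were 2074 ± 1485 FPKM (SD, n = 3) in flox and 845 ± 62.8 FPKM (SD, n = 3) in HKO, giving a log2 fold change of -0.91 (SE 0.68) and a 95% interval from -2.52 to 0.71 (limma, adjusted p = 0.436). Gsta1 had a log2 fold change of -0.81 (SE 0.84, limma, adjusted p = 0.569). For Gsta3 the value was positive, 0.84 with an SE of 0.55 and an interval from -0.46 to 2.14 (limma, adjusted p = 0.383). Gsta2, Gsta4, Gstm3, Gstp1 and Gstt1 lay between -0.71 and -0.11, and Gstm2 was at 0.049.

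Gstk1 came nearest to the threshold. Its means were 52.1 ± 12.4 FPKM (SD, n = 3) in flox and 35.2 ± 2.94 FPKM (SD, n = 3) in HKO, giving a log2 fold change of -0.53 (SE 0.24) and an interval from -1.11 to 0.046 (limma, adjusted p = 0.259). The exact two-sided permutation p was 0.1, the smallest that 3 against 3 allows. Groups did not overlap for 1 of 10 members, where 31.9% of all tested genes had groups that did not overlap (16.7% lower and 15.3% higher in HKO).

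The members varied widely among the flox libraries. Flox 3 was the lowest of the 6 libraries for 9 of 10 members, where it was the lowest for 21.8% of all tested genes. Flox 2 was the highest for 9 of 10, against 34.1% of all tested genes. Between the highest and the lowest flox library the members differed by 0.70 (Gstk1) to 3.39 (Gsta4) on the log2 scale, and 9 of 10 exceeded the median over all tested genes, 1.004. Among HKO libraries the same range was 0.20 to 0.71, against a median of 0.28 over all tested genes. All 10 members had a wider range in flox than in HKO, as had 89.2% of all tested genes. Summed over the members, the level measured 3423, 5100 and 892 FPKM across flox 1, 2 and 3, against 1625, 1766 and 1851 FPKM across HKO 1, 2 and 3.

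**Figure D2:**
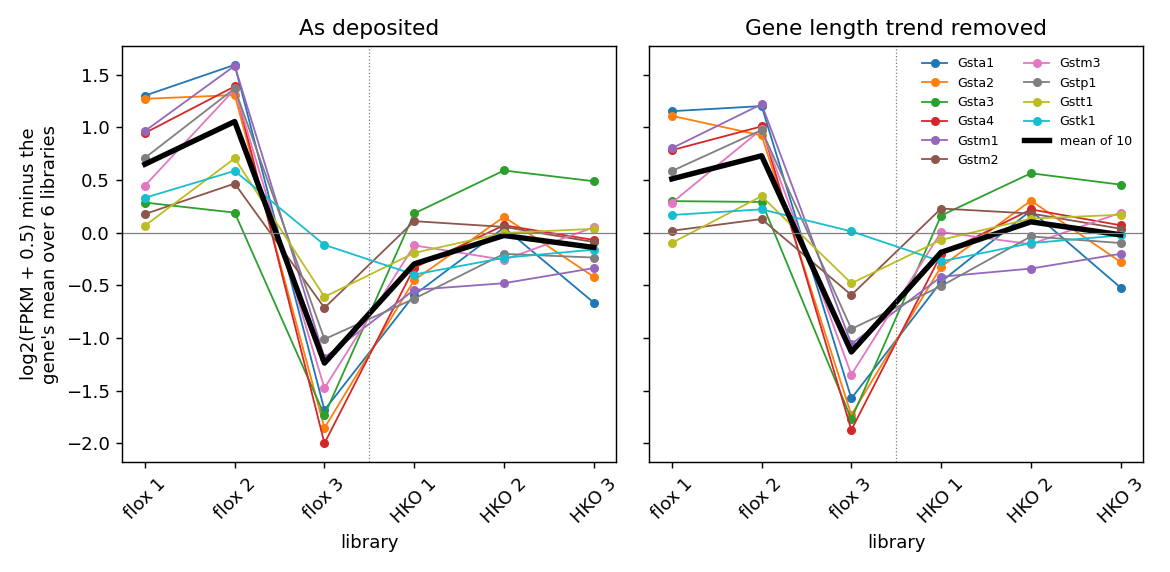
For each library, log2(FPKM + 0.5) of each member minus its mean over the 6 libraries, as deposited (left) and after subtraction of the trend on gene length in every library (right); coloured lines join the values of 1 gene and the black line is the mean of the 10. The mean is 1.05 in flox 2 and -1.24 in flox 3 on the left, and 0.73 and -1.13 on the right, while the HKO means stay between -0.30 and 0.10.

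Gene length moved with these values. The slope of a library's deviations per doubling of gene length was -0.040 in flox 1, -0.14 in flox 2, 0.046 in flox 3 and 0.038 to 0.049 in HKO. Short genes were high in flox 1 and 2, and the 1652 tested genes of 757 to 1679 bases had a median deviation of 0.17 in flox 1, 0.44 in flox 2, -0.14 in flox 3 and -0.20 to -0.17 in HKO. After removal of the trend the members' mean deviation was 0.51 in flox 1, 0.73 in flox 2 and -1.13 in flox 3, so the gap between flox 2 and flox 3 remained at most of its size. The members' median log2 fold change between groups became -0.072, with 5 of 10 negative, and no member was called.

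The result for the groups rested on flox 3. Without it limma called 7 of 10 members as lower in HKO and 0 as higher, where 40.4% of all tested genes were called in either direction, 21.0% higher and 19.4% lower (2678 of 13787). Gsta1 then had a log2 fold change of -1.85 (SE 0.26, limma, adjusted p = 0.0147), Gstm1 one of -1.73 and Gsta2 one of -1.53. Gsta4, Gstp1, Gstm3 and Gstk1 were also called, at -1.28, -1.39, -1.01 and -0.72. Gsta3 (0.18), Gstm2 (-0.30) and Gstt1 (-0.44) were not called. With flox 3 left out and the length trend removed, a choice made after seeing the data, 5 of 10 members were called lower (Gsta1, Gsta2, Gsta4, Gstm1 and Gstp1), against 17.2% of all tested genes. Without flox 2 instead, 0 members were called and the median was 0.14, with 4 of 10 negative.

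**Figure D3:**
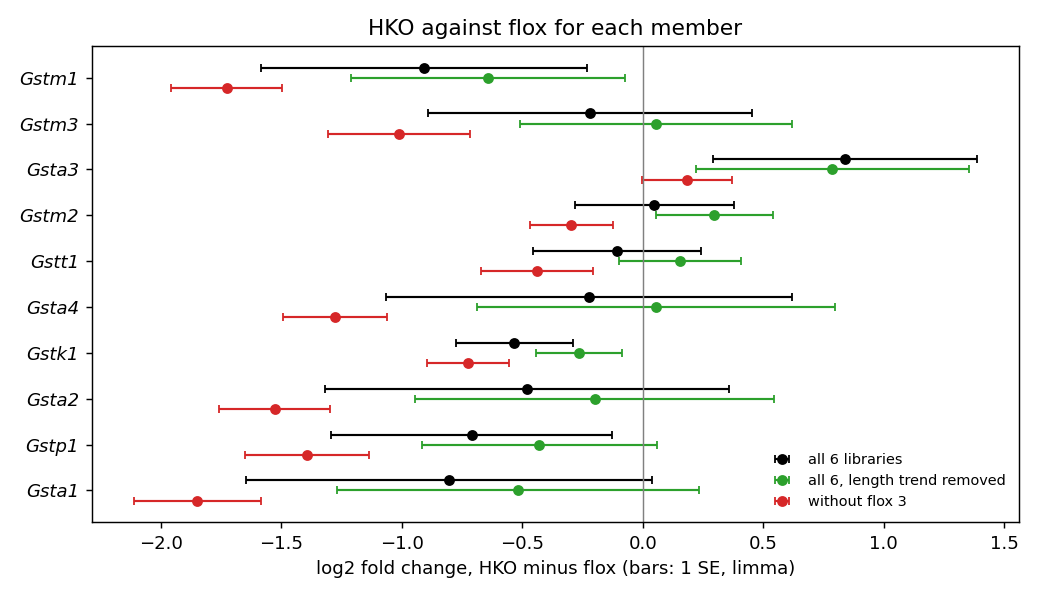
Log2 fold change of HKO minus flox for each member with all libraries (black), with all libraries and the gene length trend removed (green) and without flox 3 (red); bars are 1 SE from limma. The red values of 7 members, from -1.85 for Gsta1 to -0.72 for Gstk1, passed the threshold, and no black or green value did.

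The proportions of the subunits were compared within each library. Gstm1, chosen as the reference after the values were seen because it is the most abundant member, made up 65.8%, 67.9% and 56.9% of the members' summed FPKM in flox 1, 2 and 3 and 48.8%, 46.9% and 49.4% in HKO. Gsta3 made up 7.52%, 4.73% and 7.09% in flox and 14.7%, 18.0% and 16.0% in HKO. Within a library, the ratio of Gsta3 to Gstm1 was 0.114, 0.0696 and 0.125 in flox and 0.302, 0.384 and 0.324 in HKO. All HKO ratios were above all flox ratios, flox 3 included. Reads shared with near copies of Gstm1 could move these ratios, which was not tested. Such a ratio does not depend on the scaling between libraries. It can move with gene length, and with the length trend removed it was 0.129, 0.0957 and 0.111 in flox and 0.272, 0.341 and 0.287 in HKO, still with no overlap.

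Gstm3 and Gsta4 were also higher relative to Gstm1 in every HKO library. The ratio of Gstm3 to Gstm1 was 0.154, 0.189 and 0.180 in flox and 0.296, 0.257 and 0.289 in HKO. That of Gsta4 was 0.0414, 0.0367 and 0.0231 in flox and 0.0482, 0.0612 and 0.0503 in HKO, with a narrow gap between flox 1 and HKO 1. The ratio was thus separate and higher in HKO for 3 of 9 members, against 5.85% of 13786 tested genes set against Gstm1 in the same way. The count was also 3 with the length trend removed and 3 to 7 with each library left out in turn, and Gsta3, Gsta4 and Gstm3 were among those counted each time. That background rests on flox 3, where Gstm1 was low: without flox 3 the ratio was higher in HKO for 7 of 9 members and for 93.3% of all tested genes, so it follows the level of Gstm1 as well as that of the gene set against it. With 3 libraries against 3 the exact two-sided permutation test cannot go below 0.1. For Gstm2, Gstt1 and Gstk1 the ratio in flox 3 lay among or above the HKO ratios, and in flox 1 and 2 below them.

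**Figure D4:**
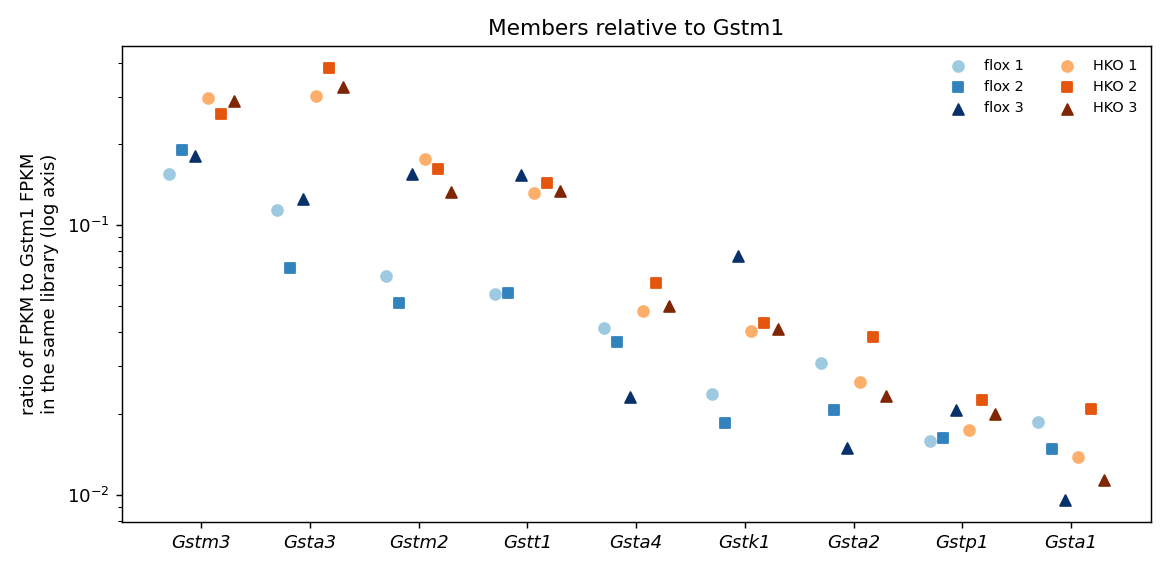
FPKM of each other member divided by FPKM of Gstm1 in the same library, on a log axis; symbols are libraries. The ratio of Gsta3 lies between 0.302 and 0.384 in HKO and between 0.0696 and 0.125 in flox, while the ratios of Gstm2, Gstt1 and Gstk1 overlap, with flox 3 among or above the HKO libraries.

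Other genes of the superfamily were read in the same way. The tables held 20 such genes, of which 13 could be tested, none was called, 12 had negative values and the median log2 fold change was -0.46. Over all tested genes 50.1% were negative. Signs and medians of this list and those below were not taken under the other scalings, on which the members' signs depended. Without flox 3, limma called 8 of the 13 lower and 1 higher, where it called 19.4% of all tested genes lower and 21.0% higher. Such counts leave flox 1 and 2 as the only controls. For this list and those below they were not made with the length trend removed, or without flox 2, where 2 of all tested genes were called. Flox 3 was the lowest library for 4 of the 13 superfamily genes. The mu gene Gstm7 measured 49.0, 56.4 and 30.7 FPKM across flox 1, 2 and 3, against 24.6, 20.9 and 25.9 FPKM across HKO 1, 2 and 3, giving a log2 fold change of -0.88 (SE 0.28, limma, adjusted p = 0.198). Gsto1, an omega class enzyme that reduces thiol adducts, measured 64.3, 58.2 and 49.2 FPKM across flox 1, 2 and 3, against 39.4, 39.5 and 37.4 FPKM across HKO 1, 2 and 3. Gstz1, the zeta enzyme of tyrosine breakdown, measured 141, 140 and 117 FPKM across flox 1, 2 and 3, against 89.9, 101 and 97.5 FPKM across HKO 1, 2 and 3. In these 3 genes all HKO values were below all flox values.

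The other genes that came nearest to the threshold there were Alox5ap, Gstcd and Gstt2. Alox5ap, which serves leukotriene synthesis in leukocytes, measured 5.06, 5.91 and 4.69 FPKM across flox 1, 2 and 3, against 2.60, 1.84 and 1.84 FPKM across HKO 1, 2 and 3 (log2 fold change -1.15). The little-studied Gstcd measured 0.91, 0.46 and 1.29 FPKM across flox 1, 2 and 3, against 1.78, 1.78 and 1.64 FPKM across HKO 1, 2 and 3 (0.73). The groups of both genes did not overlap. Gstt2, a theta gene, measured 27.0, 28.7 and 23.2 FPKM across flox 1, 2 and 3, against 16.5, 24.7 and 14.9 FPKM across HKO 1, 2 and 3 (-0.51), and HKO 2 lay among the flox values. The membrane enzyme Mgst3 had flox 2 highest and flox 3 lowest, at 61.0, 111 and 9.22 FPKM in flox, compared with 25.8, 30.6 and 27.8 FPKM in HKO. Mgst1, the abundant membrane-bound form of liver, ran the other way within flox, with 523, 335 and 819 FPKM. Its HKO values were 409, 563 and 467 FPKM. Gstm4, Gstm5 and Gstm6 had flox 2 highest and flox 3 lowest, while Gstt3 was highest in flox 3 and Hpgds stayed between 0.80 and 1.08 FPKM.

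Genes that supply and recycle glutathione came next. Of 25 tested genes 0 were called, 18 were negative, and the median log2 fold change was -0.36. Leaving out flox 3 gave 9 called lower and 2 called higher, against 19.4% lower and 21.0% higher over all tested genes. Cth, which makes cysteine for glutathione from cystathionine, measured 56.7, 48.0 and 94.4 FPKM across flox 1, 2 and 3, against 258, 188 and 169 FPKM across HKO 1, 2 and 3, giving a log2 fold change of 1.66 (SE 0.32, limma, adjusted p = 0.151). Chac2, an enzyme that degrades glutathione, measured 13.7, 3.92 and 5.61 FPKM across flox 1, 2 and 3, against 30.6, 28.8 and 33.2 FPKM across HKO 1, 2 and 3. Oplah, which returns oxoproline to glutamate, was lower in every HKO library, with 32.2, 35.7 and 65.9 FPKM across flox, against 11.7, 19.1 and 14.7 FPKM across HKO. The exporter Abcc4 had a log2 fold change of -1.12.

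The NRF2 list, of the factor, its partners and its targets, had 0 of 24 tested genes called, 17 negative and a median of -0.36. Without flox 3, 11 of these were called lower and 3 higher, against 19.4% lower and 21.0% higher over all tested genes. The mean deviation over the list was 0.39, 0.27 and -0.44 in flox 1, 2 and 3, against 0.65, 1.05 and -1.24 for the members. Hmox1, the heme oxygenase, measured 73.8, 75.4 and 40.8 FPKM across flox 1, 2 and 3, against 31.5, 21.0 and 26.4 FPKM across HKO 1, 2 and 3 (log2 fold change -1.22 with an SE of 0.31, limma, adjusted p = 0.167). Ces1g (1.46), Akr1b8 (-0.91) and Ugt2b35 (0.89) came next in this list. Nfe2l2, the gene of NRF2, measured 21.1, 12.4 and 12.5 FPKM across flox 1, 2 and 3, against 22.5, 22.8 and 22.6 FPKM across HKO 1, 2 and 3. Flox 2 and flox 3 were close to each other in this gene and below the other 4 libraries.

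The list of CAR, PXR, AhR and their targets had a median of 0.55, 16 of 21 positive and 0 called. Without flox 3, 11 were called higher and 3 lower, against 21.0% higher and 19.4% lower over all tested genes. Its mean deviation was -0.11, -0.77 and 0.007 in flox 1, 2 and 3, so flox 2 was low where the members were high. Cyp3a11, a PXR target, measured 282, 204 and 191 FPKM across flox 1, 2 and 3, against 636, 754 and 650 FPKM across HKO 1, 2 and 3. Cyp2b10, Ahr and Por had log2 fold changes of 2.08, 1.56 and -1.53.

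**Figure D5:**
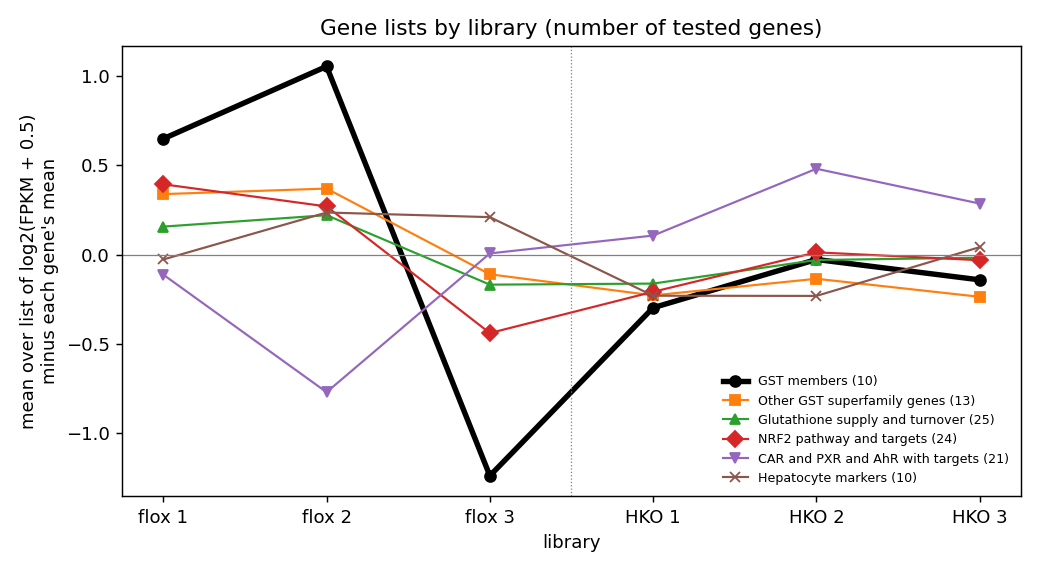
Mean over each gene list of log2(FPKM + 0.5) minus each gene's mean over the 6 libraries, by library; lines join the values of 1 list and the key gives the number of tested genes. The members (black) range from -1.24 in flox 3 to 1.05 in flox 2, the NRF2 list from -0.44 to 0.39, and hepatocyte markers from -0.23 to 0.24.

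Markers of other liver cells differed between these libraries as well, and their part in the values above was not tested. The summed level of 14 macrophage markers was 1163 to 2392 FPKM in flox, lowest in flox 3, and 642 to 955 FPKM in HKO. Of the 13 tested, 11 had negative and 2 positive log2 fold changes. Adgre1 (0.060), Timd4 (0.10) and Vsig4 (-0.065) had small ones, and their groups overlapped. For 8 neutrophil markers the summed level was 24.8 to 54.2 FPKM in flox, compared with 4.36 to 6.28 FPKM in HKO. In flox, S100a9 (13.0 to 28.8 FPKM) and S100a8 (5.92 to 17.4 FPKM) were the most abundant of them. Ly6g was at 0 in every library, and Mpo in flox 3 and in every HKO library. Elane, too low to be tested, was at 0 to 0.11 FPKM in flox and 0.093 to 0.25 FPKM in HKO. For 8 bile duct markers the summed level was 50.03 to 80.1 FPKM in flox, compared with 113 to 268 FPKM in HKO, and all 8 were above 0 in every library. Stellate cell markers summed to 105 to 279 FPKM in flox, compared with 91.5 to 105 FPKM in HKO, with Ecm1 the most abundant in every library. The 10 genes of that list were mixed, with 3 positive and 7 negative log2 fold changes. Endothelial markers summed to 123 to 179 FPKM in flox and 91.7 to 126 FPKM in HKO, and Lyve1 alone was at 70.4 FPKM in flox 3. Of these 10 genes 4 were positive, with a median log2 fold change of -0.12. Kdr, Tek and Fcgr2b were higher in every HKO library and Stab1 and Lyve1 lower in every one. Proliferation markers were at 57.6, 32.2 and 18.3 FPKM in flox 1, 2 and 3, compared with 24.1 to 31.5 FPKM in HKO. With all libraries limma called no tested gene of these lists. Without flox 3 it called 9 of 13 macrophage genes and 4 of 4 neutrophil genes lower, where it called 19.4% of all tested genes lower. It also called 3 of 8 bile duct genes higher, against 21.0% of all tested genes, and 4 of 7 proliferation genes lower. Of the 10 stellate genes 2 were then called higher and 4 lower, and of the 10 endothelial genes 2 higher and 1 lower. Pericentral and periportal genes, which mark zones of the lobule, had median log2 fold changes of 0.29 and -0.53. Without flox 3, 5 of 14 pericentral genes were called higher, and of 13 periportal genes 3 were called higher and 4 lower. The shares over all tested genes were 21.0% higher and 19.4% lower.

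The 5 protein-coding genes with the profile most like the members' mean were Spc24, Pycrl, Tuba1b, Ephx1 and Clip2. Likeness was the root mean square difference of the centred log2 profiles over the 6 libraries, which was 0.070 for Spc24, a kinetochore gene, and 0.12 for Clip2. The members themselves lay between 0.22 (Gstp1) and 0.60 (Gsta3) from their own mean. Ephx1, which encodes the microsomal epoxide hydrolase, measured 371, 510 and 91.7 FPKM across flox 1, 2 and 3, against 168, 208 and 178 FPKM across HKO 1, 2 and 3, a difference of 0.11 from the members' mean profile. Tuba1b, a tubulin gene, was at 62.4, 75.2 and 15.2 FPKM in flox, compared with 35.0 to 37.1 FPKM in HKO.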

How the data were processed

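Liver RNA of 3 flox and 3 HKO mice was compared, grouped by sample title and genotype label. TopHat2, HTSeq 0.6.1 and the build GRCm38.p6 are named, per the submitters' processing notes. The authors deposited FPKM values, scaled by gene length and library reads, in a table for flox and another for HKO, per the file headers. FPKM times gene length gave whole multiples of 1 read for 100% of values above 0 (within 0.01), from which read numbers were rebuilt. Whether counting used strand is not given in the sources used here.

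Testing was limited to a mean FPKM of 0.5 or more and used limma 3.58.1 (R 4.3.3) on log2(FPKM + 0.5), a scale that understates the change of low genes, with trended moderated variances, two-sided, Benjamini-Hochberg adjusted over all tested genes, at 0.05. The code was tested on simulated libraries, where recovery of changed genes was required only at a spread well below that of these libraries. At the spread of these libraries only false calls were limited, so the test does not show which changes could be found here. The length trend was a lowess fit with a span of 0.3. Promoters came from RefSeq (GRCm38.p6) and transcripts from GENCODE M21 (GRCm38). Sequences were handled with Biopython 1.88, and figures drawn with matplotlib 3.10.9. Members and gene lists were chosen with earlier results of these data known. The text names all members and, of each other list, the genes with the smallest limma p (up to 6 of the superfamily with full values, and up to 4 of each pathway list), all tested superfamily genes, with the 5 genes most like the members. Gsta13, Gsta5 and Tf were not found under these names. Chosen after values were seen were the Gstm1 reference, Nfe2l2, the endothelial and stellate genes named, and the full values of Mgst1 and Mgst3. From the bile duct list, 1 listed gene is not reported here and was left out of its sum.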

Additional observations from a re-analysis of the deposited data

How the results depend on the processing

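With all libraries kept, 0 members and 2 of all tested genes were called, and the members' count stayed at 0 under other pseudocounts, filters, scalings and moderation, voom on recovered reads (2 genes called) and summed paralogs. The count over all genes was 5 with libraries scaled to the same sum. The replicate numbers do not pair the samples (same-numbered deviations correlated at -0.0415, -0.0903 and 0.0704), and with a replicate block 1 gene was called, also after removal of the length trend, and 0 members. Library weights gave 7757 genes and 7 members, all lower; these weights were 0.108 for flox 3 and 4.75 for flox 1. Leaving out 1 library at a time gave 0 to 5575 genes and 0 to 7 members, with both upper values without flox 3. Without flox 1, limma called 0 genes, and 1904 had an unadjusted p below 0.05. Without flox 3 and with the length trend removed, 4598 genes and 5 members were called. The number of members with a ratio to Gstm1 above flox in every HKO library was 3, and 3 to 7 with 1 library left out, highest without flox 3. The causes were not tested.

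Some log2 fold changes of members turned sign. With the same sum per library they were 0.19 for Gsta4, 0.20 for Gstm3 and 0.31 for Gstt1, and with upper quartile scaling Gstt1 was at 0.035. These scalings moved the median of all genes to 0.34 and 0.11, and the 4 values lie below those medians. With quantile normalization, which left the median at -0.018, Gsta4, Gstm3 and Gstt1 were at 0.21, 0.30 and 0.41. Why the signs turned was not tested. With the length trend removed, with or without the replicate block, they were 0.055 for Gsta4, 0.056 for Gstm3 and 0.16 for Gstt1. Library weights put Gstm2 at -0.16. Leaving out 1 library at a time gave -1.53 to 0.052 for Gsta2, -1.28 to 0.42 for Gsta4, -0.30 to 0.29 for Gstm2, -1.01 to 0.41 for Gstm3 and -0.44 to 0.22 for Gstt1, with the lowest without flox 3 and the highest without flox 2. With 3 libraries a group and this spread within flox, fold changes of the sizes seen here could not be told from 0.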
